A study of Mus musculus with 12 samples.

Results

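Genes that build, break down and regulate liver glycogen were followed through 12 RNA-seq libraries of mouse liver. The 9 genes were taken by symbol from the deposited table, which held 24033 symbols. They are 4 subunits that target protein phosphatase 1 to glycogen (Ppp1r3b, Ppp1r3c, Ppp1r3d and Ppp1r3g), the liver glycogen synthase Gys2, the branching enzyme Gbe1, the UDP-glucose pyrophosphorylase Ugp2, the glycogenin Gyg and the liver glycogen phosphorylase Pygl. Of the 9 genes, 8 had a mean log2 expression of at least 4 and entered the test with 12965 genes in all, and Ppp1r3d lay below that limit.

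All animals were wild-type C57BL/6 females, and the labels give no age. The 4 groups of 3 libraries each were ovariectomized females given dexamethasone, ovariectomized females given PBS (vehicle), intact females given dexamethasone, and intact females given PBS. Dexamethasone, a synthetic glucocorticoid, was given at 1 mg/kg and livers were taken after 6 h. Ovariectomy removes the ovaries, the main source of circulating oestrogen. Levels are the deposited log2 expression values, which are normalized between libraries but not for gene length. Each difference is given on the log2 scale with its SE, estimated in limma from 3 libraries a group. A gene passed when its p, adjusted by Benjamini-Hochberg over all genes tested, was under 0.05. Whether the libraries of a group came from separate animals is not stated in the labels, and the p-values therefore reflect only the variation among these libraries, which may be technical.

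In the liver, glucose 1-phosphate is activated to UDP-glucose by the pyrophosphorylase, chains are primed on glycogenin, extended by the synthase and branched by the branching enzyme, and the phosphorylase releases glucose units again. Synthase is active when dephosphorylated and phosphorylase when phosphorylated, and the targeting subunits bring protein phosphatase 1 to the glycogen particle, where it acts on both enzymes. Glucocorticoids are named for their effect on glucose and are known to promote glycogen storage in liver. In bulk liver RNA, fewer cells of a type and less RNA per cell cannot be told apart.

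The targeting subunits Ppp1r3b and Ppp1r3g, Ugp2, Gys2 and Gbe1 passed in at least 1 comparison each, and Ppp1r3c, Gyg and Pygl passed in none. With dexamethasone in ovariectomized females, 1 of the 8 genes tested rose and 3 fell, which is 4 of 8 called, against 40.7% of all genes tested. With dexamethasone in intact females, 1 rose and 3 fell, again 4 of 8, against 48.8% of all genes tested. Both shares are near those of all genes. The median absolute log2 difference of the 8 genes was 0.48 in ovariectomized females, against 0.19 over all genes tested, and 0.67 in intact females, against 0.23 over all genes tested. The median signed log2 difference of the 8 genes was -0.08 in ovariectomized females and -0.37 in intact females, and over all genes tested it was 0.00 to 2 decimals in both.

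**Figure D1:**
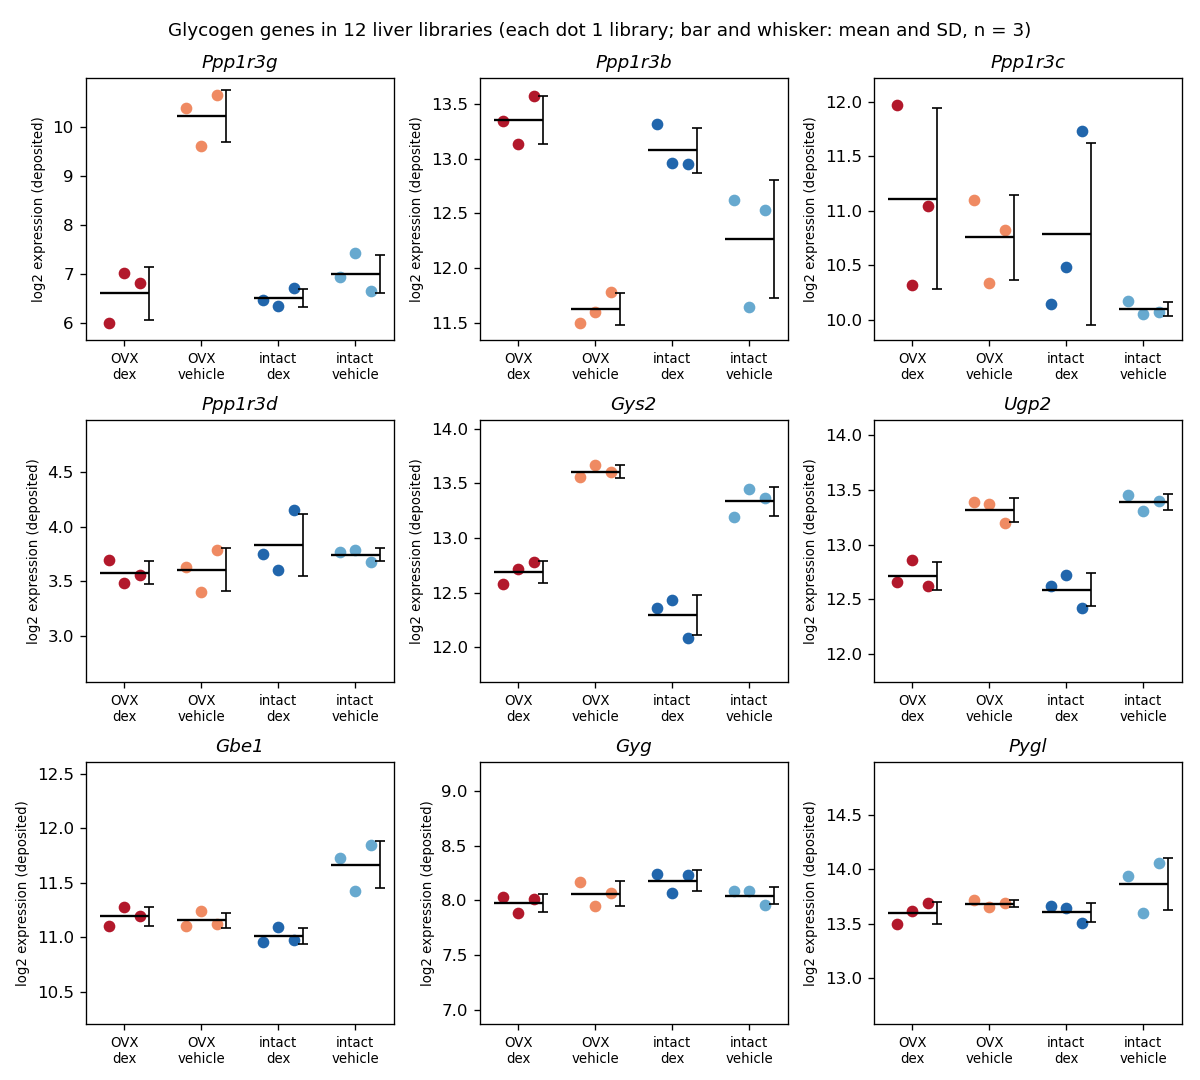
Deposited log2 expression (vertical axis, scaled for each gene) of the 9 genes in each library, by group (OVX, ovariectomized; dex, dexamethasone); each dot is 1 library, and the bar and whisker give the mean and SD of 3 libraries. Ppp1r3g stood between 9.62 and 10.64 in the OVX vehicle libraries and between 5.99 and 7.42 in the other 9, while Gys2 and Ugp2 were lower in every dexamethasone library than in any vehicle library.

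Ppp1r3g (Entrez 76487), a targeting subunit that in mouse liver is known to vary with fasting and feeding, changed most among these genes. Its log2 expression was 5.99, 7.01 and 6.81 in the ovariectomized dexamethasone libraries and 10.38, 9.62 and 10.64 in the ovariectomized vehicle libraries. It was 6.47, 6.35 and 6.72 in the intact dexamethasone libraries and 6.93, 7.42 and 6.65 in the intact vehicle libraries. The ovariectomized vehicle libraries were high and did not overlap with any other group, and the other 3 groups overlapped with each other.

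With dexamethasone in ovariectomized females Ppp1r3g fell by 3.61 ± 0.30 on the log2 scale, or 12.2-fold (limma, adjusted p = 8.57e-06). Only 1 of the 12965 genes tested fell further, and by absolute change it ranked 5. With dexamethasone in intact females its log2 difference was -0.48 ± 0.30, which did not pass (adjusted p = 0.201). The difference between these responses, ovariectomized minus intact, was -3.12 ± 0.42 (adjusted p = 0.000813), and ranked 2 by absolute size.

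In vehicle-treated females Ppp1r3g was 9.29-fold higher after ovariectomy, a log2 difference of 3.21 ± 0.30 (adjusted p = 0.000123), which also ranked 2 by absolute size. In dexamethasone-treated females the log2 difference between ovariectomized and intact was 0.09 ± 0.30, with a 95% interval of -0.56 to 0.75 (adjusted p = 0.861). The fall with dexamethasone after ovariectomy and the rise with ovariectomy under vehicle rest on the same 3 ovariectomized vehicle libraries and are not independent of each other. Leaving out any 1 library kept both calls and the call of the difference between responses.

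The window around the annotated start of Ppp1r3g is shown because this gene carried the widest change. It was taken from RefSeq on GRCm38.p6, chr13:35967656-35967955, plus strand, and spans 250 bases before to 50 bases after the start. The capitals mark TGACG, a short sequence known as part of the cyclic AMP response element, whose first base lies 40 bases upstream of the start.
Ppp1r3g: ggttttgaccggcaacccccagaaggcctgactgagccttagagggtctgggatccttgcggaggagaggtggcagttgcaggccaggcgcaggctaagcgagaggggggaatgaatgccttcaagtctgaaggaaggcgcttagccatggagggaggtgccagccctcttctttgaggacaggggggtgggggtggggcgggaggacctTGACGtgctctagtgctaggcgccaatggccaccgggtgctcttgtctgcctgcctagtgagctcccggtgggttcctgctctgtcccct

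TGACG was searched on both strands and was added after the sequences had been seen. It occurred in 20.8% of all 32851 promoter windows of this length, so its presence in the Ppp1r3g window is a common match. Of the 7 genes with a matched window, 4 held it, Ppp1r3d, Ppp1r3g, Gyg and Pygl. The full palindrome TGACGTCA, present in 1.79% of all windows, was in none of the windows of these genes. Nor was ACANNNTGT, the core of a glucocorticoid response element (6.85% of all windows), or TGTTTAC, a forkhead pattern searched on both strands (3.65% of all windows). No match says only that these letters are not in these windows. RefSeq windows were matched for 7 of the 9 genes, 8 windows in all, and Ppp1r3b and Gys2 were not matched.

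Over the 12 libraries, the 3 genes whose pattern was nearest to Ppp1r3g were Nr4a1, Nr4a2 and Sik1. Nearness was the root mean square difference after each gene was centred on its own mean, among the 12965 genes tested, and is a description without a test. It was 0.59 for Nr4a1, 0.60 for Nr4a2 and 0.91 for Sik1 on the log2 scale, against a spread of Ppp1r3g itself of 1.57. Nr4a1 and Nr4a2 encode orphan nuclear receptors of the immediate early class, and Sik1 a salt-inducible kinase. Nr4a1 stood at 11.26, 10.30 and 11.87 in the ovariectomized vehicle libraries and between 6.36 and 6.64 in the other 9. Like Ppp1r3g, it was lowest among the ovariectomized vehicle libraries in replicate 2, but it was picked for nearness over these same libraries.

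Immediate early genes as a list moved with the ovariectomized vehicle libraries. All 8 listed genes fell with dexamethasone in ovariectomized females. There 40.7% of all genes were called in either direction, and 2518 of 12965 fell. In intact females 3 of the 8 rose, where 48.8% of all genes were called in either direction and 2959 of 12965 rose. Under vehicle, 7 of the 8 were higher in ovariectomized than in intact females. In that comparison 27.9% of all genes were called in either direction, and 1608 of 12965 were higher. Their summed linear level ranged from 2266 to 2490 in ovariectomized dexamethasone, 4714 to 9505 in ovariectomized vehicle, 2493 to 3148 in intact dexamethasone and 2327 to 2646 in intact vehicle libraries. Nr4a1, picked above as nearest to Ppp1r3g, is 1 of the 8 and weighs heavily in the ovariectomized vehicle sums. Its mean log2 level there was 11.14, against 10.28 for Junb, the next highest. The part of the immediate early genes in the Ppp1r3g result was not tested.

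**Figure D2:**
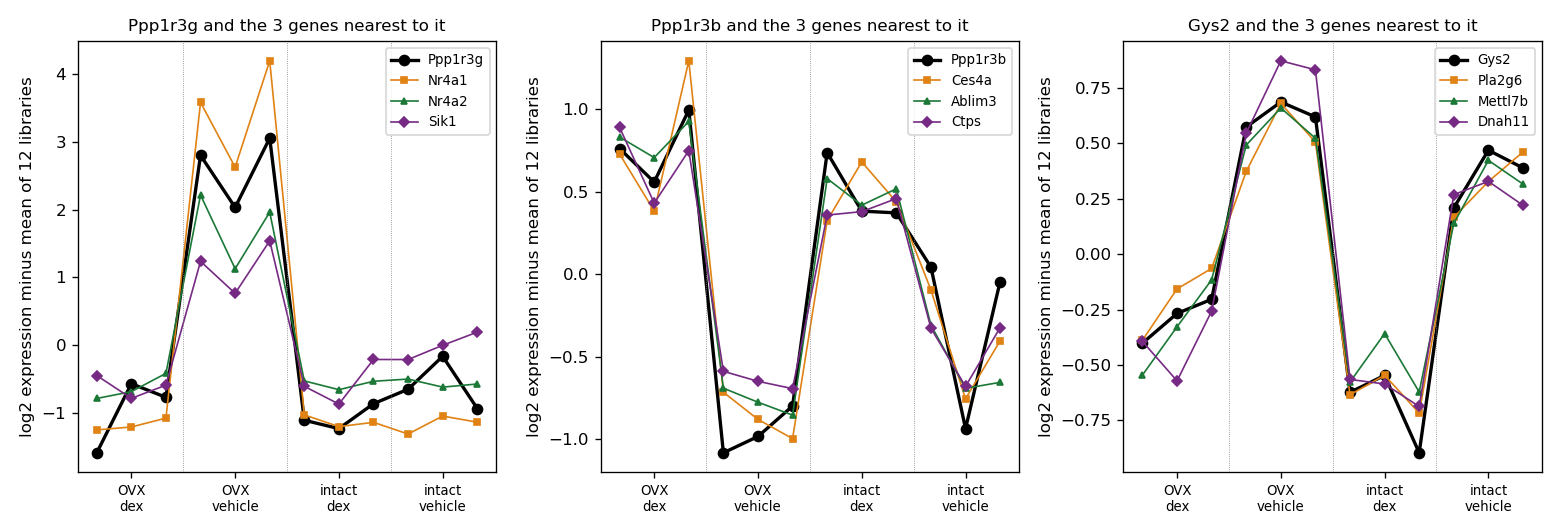
Log2 expression minus each gene's mean of 12 libraries (vertical axis) for Ppp1r3g, Ppp1r3b and Gys2 (black) and the 3 genes nearest to each; points are libraries by group, joined only to guide the eye. Nr4a1, Nr4a2, Sik1 and Ppp1r3g share high values in the ovariectomized (OVX) vehicle libraries, with Nr4a1 at 11.26, 10.30 and 11.87 before centring.

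Ppp1r3b (Entrez 244416), the main glycogen-targeting subunit of rodent liver, often called GL, rose with dexamethasone in both gonadal states. Log2 expression of Ppp1r3b was 13.34, 13.14 and 13.58 in the ovariectomized dexamethasone libraries and 11.50, 11.59 and 11.78 in the ovariectomized vehicle libraries. It was 13.32, 12.96 and 12.95 in the intact dexamethasone libraries and 12.62, 11.64 and 12.53 in the intact vehicle libraries. Every dexamethasone library was above every vehicle library, and intact vehicle replicate 2 lay among the ovariectomized vehicle libraries.

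Ppp1r3b rose by 1.73 ± 0.22 on the log2 scale, or 3.32-fold, with dexamethasone in ovariectomized females (limma, adjusted p = 0.000141). It rose by 0.81 ± 0.22, or 1.75-fold, in intact females (adjusted p = 0.00915), and by 0.50 (adjusted p = 0.0140) without intact vehicle replicate 2. The response was larger in ovariectomized females by 0.92 ± 0.31 on the log2 scale (adjusted p = 0.0480). That call did not hold in 16 of 22 alternative analyses, where adjusted p ranged from 0.00156 to 0.117 over all 22, and leaving out any 1 of 10 libraries ended it.

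Under vehicle, Ppp1r3b was lower in ovariectomized than in intact females by a log2 difference of -0.64 ± 0.22 (adjusted p = 0.0458), and the groups overlapped. This call too ended in 10 of 17 alternatives (adjusted p from 0.000823 to 0.179), including the omission of each vehicle library except intact replicate 2. Under dexamethasone the log2 difference between ovariectomized and intact was 0.28 ± 0.22 (adjusted p = 0.410). The 3 genes nearest in pattern were Ces4a, a carboxylesterase (root mean square difference 0.25), Ablim3, an actin-binding LIM protein (0.26), and Ctps, the CTP synthase (0.27), against a spread of Ppp1r3b itself of 0.73.

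Ppp1r3c (Entrez 53412), the targeting subunit known as PTG, varied widely within groups. Its log2 expression was 11.97, 10.32 and 11.04 in the ovariectomized dexamethasone libraries and 11.10, 10.34 and 10.83 in the ovariectomized vehicle libraries. It was 10.14, 10.49 and 11.73 in the intact dexamethasone libraries and 10.17, 10.05 and 10.07 in the intact vehicle libraries. Single high libraries stood out in both dexamethasone groups, and the intact vehicle libraries were low and close together.

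None of the comparisons passed for Ppp1r3c. The log2 difference with dexamethasone was 0.36 ± 0.42 in ovariectomized females (adjusted p = 0.524) and 0.69 ± 0.42 in intact females (adjusted p = 0.196). Without intact dexamethasone replicate 3 the log2 difference in intact females was 0.22. Every ovariectomized vehicle library was above every intact vehicle library, with a log2 difference of 0.66 ± 0.42 (adjusted p = 0.265), which passed when only those libraries were fitted (adjusted p = 0.0244) or libraries were weighted (adjusted p = 0.0308). The 95% intervals, -0.56 to 1.27 for dexamethasone in ovariectomized and -0.23 to 1.605 in intact females, leave room for changes of more than 2-fold.

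The Ppp1r3c window is shown because it holds the E-box CACGTG, the palindrome bound by several basic helix-loop-helix factors, in capitals and 104 bases before the start (RefSeq, GRCm38.p6, chr19:36736555-36736854, minus strand).
Ppp1r3c: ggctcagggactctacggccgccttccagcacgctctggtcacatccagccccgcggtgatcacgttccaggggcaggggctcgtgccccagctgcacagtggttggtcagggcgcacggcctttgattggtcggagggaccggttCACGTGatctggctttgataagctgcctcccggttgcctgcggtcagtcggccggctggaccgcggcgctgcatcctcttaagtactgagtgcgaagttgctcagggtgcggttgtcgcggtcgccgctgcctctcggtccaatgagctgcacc

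CACGTG, which reads the same on both strands, was found in 7.15% of all windows and in those of 3 of the 7 matched genes, Ppp1r3c, Ppp1r3d and Gyg. In Ppp1r3d and Gyg it overlapped a TGACG match. None of these 3 genes passed in any comparison.

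Ppp1r3d (Entrez 228966), a more widely expressed targeting subunit, lay just below the limit for testing. Its log2 expression ranged from 3.49 to 3.69 in ovariectomized dexamethasone, 3.40 to 3.79 in ovariectomized vehicle, 3.61 to 4.15 in intact dexamethasone and 3.68 to 3.79 in intact vehicle libraries. All groups overlapped. Fitted without the limit on low values, its differences lay between -0.25 and 0.09 on the log2 scale, and none passed (adjusted p from 0.299 to 0.905).

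Gys2 (Entrez 232493), which extends the glycogen chain and is the liver form of the synthase, fell with dexamethasone in both gonadal states. Log2 expression of Gys2 was 12.58, 12.71 and 12.78 in the ovariectomized dexamethasone libraries and 13.55, 13.67 and 13.60 in the ovariectomized vehicle libraries. It was 12.36, 12.44 and 12.09 in the intact dexamethasone libraries and 13.19, 13.45 and 13.37 in the intact vehicle libraries. No dexamethasone library reached a vehicle library.

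Gys2 fell by 0.92 ± 0.094 on the log2 scale, or 1.89-fold, in ovariectomized females (limma, adjusted p = 3.67e-05) and by 1.04 ± 0.094, or 2.06-fold, in intact females (adjusted p = 1.02e-05). The difference between the responses was 0.13 ± 0.13, with a 95% interval of -0.16 to 0.42 (adjusted p = 0.507). Under dexamethasone Gys2 was higher in ovariectomized than in intact females by 0.40 ± 0.094 (adjusted p = 0.0243). This call ended in 5 of 17 alternatives (adjusted p from 0.000808 to 0.0960), 3 of them the omission of intact dexamethasone replicate 1 or of ovariectomized dexamethasone replicate 2 or 3.

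Under vehicle the ovariectomized libraries also lay above the intact ones for Gys2, by 0.27 ± 0.094, which just missed the threshold (adjusted p = 0.0502). It passed in 7 of 17 alternatives, where adjusted p ranged from 0.0104 to 0.189 over all 17, among them the fit without intact vehicle replicate 2 (0.33, adjusted p = 0.0349). The 3 genes nearest to Gys2 in pattern were Pla2g6, a calcium-independent phospholipase (root mean square difference 0.11), Mettl7b, a methyltransferase (0.12), and Dnah11, an axonemal dynein heavy chain (0.15), against a spread of Gys2 itself of 0.53.

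Ugp2 (Entrez 216558), which makes the UDP-glucose that the synthase uses, fell alongside Gys2. Its log2 expression was 12.66, 12.86 and 12.62 in the ovariectomized dexamethasone libraries and 13.39, 13.37 and 13.19 in the ovariectomized vehicle libraries. It was 12.62, 12.72 and 12.42 in the intact dexamethasone libraries and 13.45, 13.31 and 13.40 in the intact vehicle libraries. The treatments did not overlap, and the gonadal states did under either treatment.

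Ugp2 fell by 0.61 ± 0.089 on the log2 scale, or 1.52-fold, in ovariectomized females (limma, adjusted p = 0.00035) and by 0.80 ± 0.089, or 1.74-fold, in intact females (adjusted p = 3.92e-05). The difference between the responses was 0.19 ± 0.13 (adjusted p = 0.278). Its log2 differences between ovariectomized and intact were 0.12 ± 0.089 under dexamethasone (adjusted p = 0.360) and -0.07 ± 0.089 under vehicle (adjusted p = 0.600). An antisense-strand gene, Gm12043, covers 2.54% of Ugp2's exons, and because strand-specific counting is not stated, reads from that stretch cannot be assigned to either gene.

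Gbe1 (Entrez 74185), which places the branch points, fell with dexamethasone in intact females and did not pass in ovariectomized females. Log2 expression of Gbe1 was 11.10, 11.28 and 11.20 in the ovariectomized dexamethasone libraries and 11.11, 11.24 and 11.12 in the ovariectomized vehicle libraries. It was 10.96, 11.09 and 10.98 in the intact dexamethasone libraries and 11.72, 11.43 and 11.84 in the intact vehicle libraries. The intact vehicle libraries stood above all the others.

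The log2 difference of Gbe1 with dexamethasone was 0.04 ± 0.093 in ovariectomized females, with a 95% interval of -0.17 to 0.24 (limma, adjusted p = 0.774). In intact females Gbe1 fell by 0.65 ± 0.093, or 1.57-fold (adjusted p = 0.000185). The responses differed by 0.69 ± 0.13, ovariectomized minus intact (adjusted p = 0.00373). Under vehicle Gbe1 was lower in ovariectomized than in intact females by a log2 difference of -0.51 ± 0.093 (adjusted p = 0.00261), and the groups did not overlap. Under dexamethasone the log2 difference was 0.18 ± 0.093 (adjusted p = 0.206), although the ovariectomized libraries all lay above the intact ones. The fall in intact females, the lower level after ovariectomy under vehicle and the difference between responses share the intact vehicle libraries, and each held when any 1 library was left out.

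Gyg (Entrez 27357), the self-glucosylating primer, stayed within a narrow range. Its log2 expression was 8.03, 7.89 and 8.01 in the ovariectomized dexamethasone libraries and 8.17, 7.94 and 8.07 in the ovariectomized vehicle libraries. It was 8.24, 8.07 and 8.23 in the intact dexamethasone libraries and 8.09, 8.09 and 7.96 in the intact vehicle libraries. The dexamethasone libraries of ovariectomized females lay below those of intact females, by a log2 difference of -0.20 ± 0.079 that did not pass (limma, adjusted p = 0.106). The log2 difference with dexamethasone was -0.08 ± 0.079 in ovariectomized females (adjusted p = 0.423) and 0.14 ± 0.079 in intact females (adjusted p = 0.178).

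Pygl (Entrez 110095), the phosphorylase that releases glucose 1-phosphate from liver glycogen, had no call in any comparison. Log2 expression of Pygl was 13.50, 13.62 and 13.69 in the ovariectomized dexamethasone libraries and 13.72, 13.66 and 13.69 in the ovariectomized vehicle libraries. It was 13.67, 13.65 and 13.51 in the intact dexamethasone libraries and 13.94, 13.60 and 14.06 in the intact vehicle libraries. All groups overlapped, with intact vehicle replicates 1 and 3 above every other library.

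The log2 difference of Pygl with dexamethasone was -0.09 ± 0.10 in ovariectomized females (limma, adjusted p = 0.528) and -0.26 ± 0.10 in intact females, just short of the threshold (adjusted p = 0.0504). Without intact vehicle replicate 2 the log2 difference in intact females was -0.39 and passed (adjusted p = 0.00170). It also passed with library weights and with a mean of at least 6 (adjusted p = 0.00142 and 0.0486), and missed in the remaining 14 of 17 alternatives. The weights ranged from 0.33 to 7.25, and intact vehicle replicate 2 had a low weight of 0.41. Without that same library, Pygl under vehicle was lower in ovariectomized than in intact females by -0.31 (adjusted p = 0.0108), and the difference between responses was 0.31 (adjusted p = 0.0415). With all libraries these were -0.18 ± 0.10 (adjusted p = 0.203) and 0.17 ± 0.14 (adjusted p = 0.387).

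**Figure D3:**
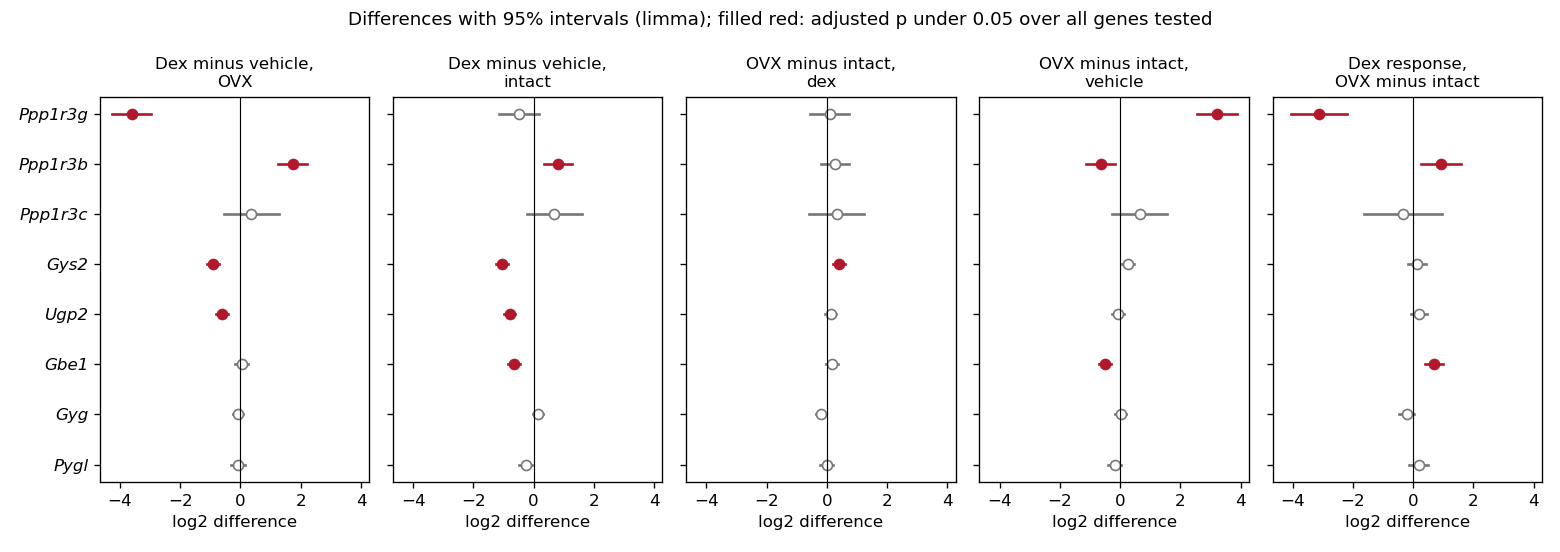
Log2 differences (horizontal axis) with 95% intervals from limma for the 8 genes tested, in the 5 comparisons (dex, dexamethasone; OVX, ovariectomized); filled red points passed at an adjusted p under 0.05. Ppp1r3g shows the widest differences, -3.61 with dexamethasone in OVX and 3.21 for OVX minus intact under vehicle, and Gyg and Pygl have no filled point.

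Because synthase and phosphorylase act in opposite directions, their log2 levels were also set against each other within each library, as a description without a test. Log2 Gys2 minus log2 Pygl was -0.92, -0.90 and -0.91 in the ovariectomized dexamethasone libraries and -0.16, 0.01 and -0.09 in the ovariectomized vehicle libraries. It was -1.31, -1.21 and -1.42 in the intact dexamethasone libraries and -0.75, -0.15 and -0.69 in the intact vehicle libraries. Every dexamethasone library was below every vehicle library, the intact dexamethasone libraries were the lowest, and intact vehicle replicate 2 lay with the ovariectomized vehicle libraries. The difference is of deposited RNA levels not scaled for length, and phosphorylation, which sets the activity of both enzymes, was not measured.

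**Figure D4:**
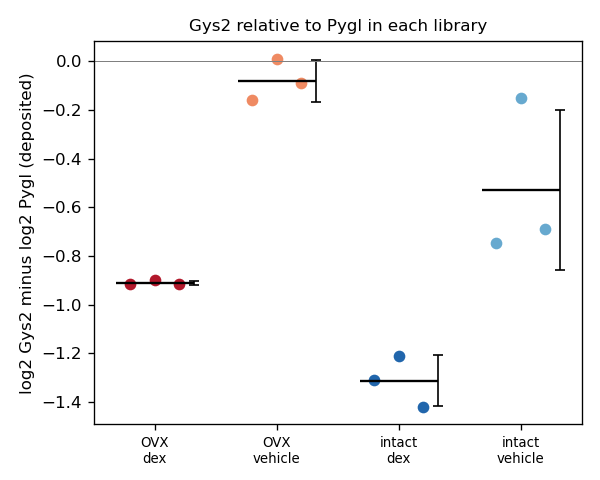
Log2 Gys2 minus log2 Pygl (vertical axis) in each library by group (OVX, ovariectomized; dex, dexamethasone); dots are libraries, and the bar and whisker give the mean and SD of 3 libraries. The OVX dexamethasone libraries lie between -0.92 and -0.90 and the OVX vehicle libraries between -0.16 and 0.01, while the intact dexamethasone libraries lie between -1.42 and -1.21 and the intact vehicle libraries between -0.75 and -0.15.

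Between the gonadal states, 3 of the 8 genes passed under vehicle, against 27.9% of all genes tested. Ppp1r3g was higher and Ppp1r3b and Gbe1 were lower in ovariectomized than in intact females. Under dexamethasone only Gys2 passed, 1 of 8, against 12.8% of all genes tested, and it was higher in ovariectomized females. For the difference between the responses to dexamethasone, 3 of 8 passed, against 24.9% of all genes tested. Taken as ovariectomized minus intact, it was positive for Ppp1r3b, which rose more in ovariectomized females, and for Gbe1, which fell in intact females only. It was negative for Ppp1r3g, which fell in ovariectomized females and did not pass in intact females. The 8 genes' median absolute log2 difference was 0.39 under vehicle, 0.19 under dexamethasone and 0.28 for the difference between responses, against 0.16, 0.13 and 0.22 over all genes tested.

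**Figure D5:**
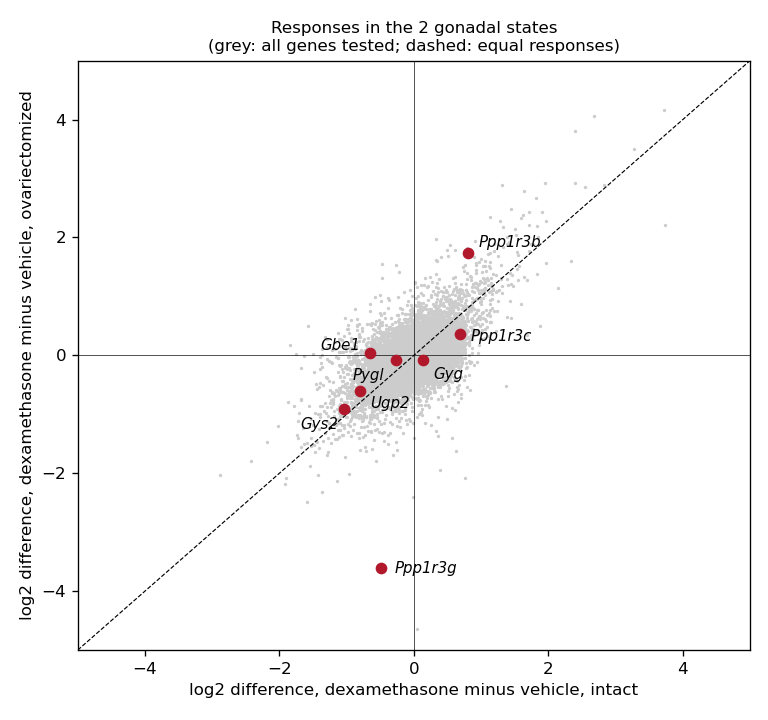
Log2 difference with dexamethasone in ovariectomized females (vertical axis) against that in intact females (horizontal axis); red dots are the 8 genes tested, grey dots all genes tested, and the dashed line marks equal responses. Gys2 and Ugp2 lie near the line, Gbe1 near 0 on the vertical axis at -0.65 on the horizontal, and Ppp1r3g far below the line at -3.61.

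Scaled to the length of the longest transcript and averaged over the 12 libraries, log2 levels per kilobase were 12.04 ± 0.16 for Pygl (SD over 12 libraries), 11.58 ± 0.38 for Ugp2 and 11.57 ± 0.55 for Gys2. Ppp1r3b followed at 10.45 ± 0.76, Gbe1 at 9.35 ± 0.28 and Ppp1r3c at 9.24 ± 0.65. Gyg stood at 7.12 ± 0.11, Ppp1r3g at 6.33 ± 1.64 and Ppp1r3d, the lowest, at 1.98 ± 0.19. These SDs include the differences between groups, so they do not measure whether genes differ in level, and levels of different genes were not tested against each other. The mean of Pygl was above that of Ugp2 in every group.

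The order was not the same in every group. In ovariectomized vehicle livers the mean log2 level per kilobase was 12.20 for Gys2 and 12.03 for Pygl, and in the other 3 groups Pygl was above Gys2. In intact dexamethasone livers it was 10.94 for Ppp1r3b and 10.88 for Gys2, and in the other 3 groups Gys2 was above Ppp1r3b. Ppp1r3c was above Gbe1 in 3 groups and below it in intact vehicle livers, at 8.65 for Ppp1r3c and 9.76 for Gbe1. Ppp1r3g stood at 8.96 in ovariectomized vehicle livers, above the 7.12 of Gyg there, and at 5.35 in ovariectomized dexamethasone, 5.26 in intact dexamethasone and 5.74 in intact vehicle livers.

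Other enzymes and regulators of glycogen, a list of 22 genes of which 20 were tested, were called about as often as all genes were. With dexamethasone, 5 of the 20 rose and 5 fell in ovariectomized females, against 40.7% of all genes called, and 2 rose and 8 fell in intact females, against 48.8% of all genes called. The count of 10 in ovariectomized females was 4 without ovariectomized vehicle replicate 1 and 6 without ovariectomized dexamethasone replicate 3. Gys1, the synthase of muscle and most other tissues, rose by 0.83 ± 0.11 in ovariectomized females (limma, adjusted p = 0.000183) and by 0.73 ± 0.11 in intact females (adjusted p = 0.000261), opposite in direction to Gys2. Its mean log2 level was 8.10 ± 0.10 in ovariectomized dexamethasone and 7.26 ± 0.035 in ovariectomized vehicle livers, and 7.96 ± 0.26 in intact dexamethasone and 7.22 ± 0.053 in intact vehicle livers (SD, n = 3).

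Phka2, the regulatory alpha subunit of liver phosphorylase kinase, fell by 0.72 ± 0.094 and Stbd1, a glycogen-binding protein, by 0.67 ± 0.10 with dexamethasone in ovariectomized females. Both fell in intact females too, Phka2 by 0.57 ± 0.094 and Stbd1 by 0.64 ± 0.10, and the differences between responses did not pass (adjusted p = 0.449 for Phka2 and 0.900 for Stbd1). In intact females the largest falls were those of Ppp1r3e, another targeting subunit (-1.002 ± 0.14), and Epm2a, the glycogen phosphatase laforin (-0.91 ± 0.12). Under vehicle, 1 of the 20 was higher and 3 were lower in ovariectomized than in intact females, against 27.9% of all genes called, with Epm2a at -0.78 ± 0.12 and Ppp1r3e at -0.53 ± 0.14. This count of 4 was 2 without intact vehicle replicate 1 or 3 or ovariectomized vehicle replicate 1 or 3. It was also 2 when a mean of at least 6 was required. Like Gbe1, Epm2a and Ppp1r3e passed as lower in ovariectomized vehicle than in intact vehicle livers. With dexamethasone in ovariectomized females neither passed. The log2 difference there was -0.09 ± 0.12 for Epm2a (limma, adjusted p = 0.566) and -0.17 ± 0.14 for Ppp1r3e (adjusted p = 0.361). The ovariectomized response minus the intact response was 0.81 ± 0.17 for Epm2a and 0.83 ± 0.20 for Ppp1r3e. Epm2a lay near the limit of 4 for testing. Its mean log2 level was 4.19 in ovariectomized dexamethasone, 4.28 in ovariectomized vehicle, 4.16 in intact dexamethasone and 5.07 in intact vehicle livers. The difference between responses passed for 5 of the 20, against 24.9% of all genes called. Taken as ovariectomized minus intact, it was positive for each of the 5. That count was 3 without ovariectomized dexamethasone replicate 3 or ovariectomized vehicle replicate 1, 2 after quantile normalization and 12 with library weights. Under dexamethasone 1 was higher and 1 lower in ovariectomized than in intact females, against 12.8% of all genes called, and the count of 2 was 1 without intact dexamethasone replicate 1 or ovariectomized dexamethasone replicate 3.

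Genes that supply or use glucose phosphates, 13 listed and tested, gave 3 rises and 4 falls with dexamethasone in ovariectomized females, against 40.7% of all genes called, and 5 rises and 3 falls in intact females, against 48.8% of all genes called. G6pc, the catalytic subunit of glucose-6-phosphatase, was higher in ovariectomized than in intact females under vehicle by 1.07 ± 0.20 (limma, adjusted p = 0.00335) and rose by 0.68 ± 0.20 with dexamethasone in intact females (adjusted p = 0.0162). With dexamethasone in ovariectomized females the log2 difference of G6pc was -0.24 ± 0.20 (adjusted p = 0.368), and the responses differed by -0.92 ± 0.29, ovariectomized minus intact (adjusted p = 0.0368). Slc37a4, which carries glucose 6-phosphate into the endoplasmic reticulum, rose by 0.92 ± 0.075 with dexamethasone in ovariectomized females and by 0.61 ± 0.075 in intact females. Slc2a2, the hepatic glucose transporter, fell by 0.44 ± 0.11 in ovariectomized and by 0.67 ± 0.11 in intact females. The differences between responses did not pass for Slc37a4 (adjusted p = 0.0504) or Slc2a2 (adjusted p = 0.310).

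All 5 known glucocorticoid targets listed rose with dexamethasone in intact females. There 48.8% of all genes were called in either direction, and 2959 of 12965 rose. In ovariectomized females 3 of 5 rose, where 40.7% of all genes were called in either direction and 2765 of 12965 rose. Fkbp5 was up by 2.29 ± 0.22 in ovariectomized and 1.28 ± 0.22 in intact females. Markers of hepatocytes and of other liver cells moved in some comparisons, and their part in the results above was not tested. Of 6 hepatocyte markers, 3 rose with dexamethasone in ovariectomized females, where 2765 of the 12965 genes tested rose. Those were Cps1 (by 1.38 ± 0.12), Hnf4a (by 0.81 ± 0.088) and Apoa1 (by 0.64 ± 0.13). In intact females 2 rose, where 2959 of the 12965 genes tested rose, Apoa1 by 0.70 ± 0.13 and Cps1 by 0.33 ± 0.12. The difference between responses, ovariectomized minus intact, passed and was positive for 3 of the 6. Over all genes 24.9% passed in either direction, and 1983 of 12965 passed as positive. Between ovariectomized and intact females, 1 was higher and 1 lower under vehicle, against 27.9% of all genes called. Under dexamethasone 2 were higher, where 12.8% of all genes were called in either direction and 1004 of 12965 were higher. On the log2 scale their summed level ranged from 22.17 to 22.35 in ovariectomized dexamethasone, 21.999 to 22.13 in ovariectomized vehicle, 22.004 to 22.10 in intact dexamethasone and 22.15 to 22.29 in intact vehicle libraries. Most of this sum is Alb, with a mean log2 level of 21.84 in ovariectomized dexamethasone livers, against 18.61 for Apoa1, the next highest there. Changes of the other markers therefore hardly show in it.

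With dexamethasone in ovariectomized females, 40.7% of all 12965 genes tested were called, 2765 rising and 2518 falling. There, 3 of 6 Kupffer cell, 3 of 3 neutrophil, 3 of 3 B cell and 2 of 5 cholangiocyte markers fell. Of the 6 sinusoidal markers 2 rose and 2 fell. In intact females given dexamethasone, 48.8% of all genes tested were called, 2959 rising and 3364 falling. Here 3 of 3 B cell, 1 of 6 Kupffer cell and 1 of 6 sinusoidal markers fell. Rises were found for 4 of 6 stellate, 3 of 6 sinusoidal and 1 of 5 cholangiocyte markers. Between the gonadal states under vehicle, 27.9% of all genes tested were called, 1608 higher and 2010 lower in ovariectomized females. Lower in ovariectomized than in intact females were 4 of 6 Kupffer cell and 1 of 3 B cell markers. Higher were 2 of 5 cholangiocyte, 1 of 3 neutrophil, 1 of 6 sinusoidal and 1 of 6 stellate markers. Under dexamethasone that share was 12.8%, with 1004 genes higher and 658 lower in ovariectomized females. Lower in ovariectomized than in intact females were 3 of 6 Kupffer cell, 2 of 6 stellate, 1 of 6 sinusoidal and 1 of 3 neutrophil markers. The difference between responses passed for 24.9% of all genes tested, positive for 1983 and negative for 1251. Taken as ovariectomized minus intact, it was negative for 2 of 3 neutrophil, 2 of 5 cholangiocyte, 2 of 6 stellate and 2 of 6 sinusoidal markers. For Kupffer cell markers it was positive for 1 and negative for 1 of 6.

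Summed linear levels of the Kupffer cell markers ranged from 4702 to 5915 in ovariectomized dexamethasone, 5282 to 6225 in ovariectomized vehicle, 6331 to 7249 in intact dexamethasone and 7049 to 7160 in intact vehicle libraries. Those of the 3 neutrophil markers ranged from 104 to 117 in ovariectomized dexamethasone, 178 to 224 in ovariectomized vehicle, 140 to 156 in intact dexamethasone and 136 to 176 in intact vehicle libraries. The muscle marker Ckm and the pancreatic markers Prss1 and Try4 were listed at 0 in every library. No adipocyte marker reached the limit for testing, and none of the 3 T and NK cell markers tested passed in any comparison.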

How the data were processed

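Libraries of liver RNA were prepared with Illumina's TruSeq kit and read on a NextSeq instrument, per the labels' protocols. The submitters' processing notes name Trim Galore, TopHat2, HTSeq, DESeq, DESeq2 and the build mm9, without versions. What the authors deposited is 1 table of log2 expression values, derived from counts per gene with normalization across libraries, as the labels describe it. The sources used here give neither the exact transformation nor the annotation or strand setting. Depth cannot be read from these values, and intervals or floors that need it are left out.

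Of 24962 entries, 6294 were at 0 in every library. Where a symbol had several entries (392 symbols), only that with the highest mean entered. Genes whose mean over 12 libraries reached 4 entered a single limma model of the 4 groups (limma 3.58.1, R 4.3.3), using lmFit and eBayes with a variance trend, 8 residual degrees of freedom, and no minimum fold. The fit was checked on simulated data. Library medians over the genes tested were 8.82 to 8.86, and the first principal component, with 49.9% of the variance, separated vehicle from dexamethasone. The labels give no batch.

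The members and lists were chosen with earlier results of these data known. All 9 members are named whatever their values, with up to 4 passing genes of each other list per comparison by size of change, and the 3 genes nearest in pattern to each of the 3 members with the widest range of group means. Some genes that this rule takes are left out of the text, though list counts include them. Transcript lengths came from GENCODE on GRCm38. At most 0.948% of a member's 50-base words occurred in another gene. Other settings tried were the limit on low values (absent, or 6), 8 added on the linear scale, medians recentred, quantile normalization, eBayes untrended or robust, libraries weighted, a fit of the groups compared alone, replicate numbers as a block, and the omission of single libraries. The removal of each library's dependence on length and GC content (splines with 4 degrees of freedom, 95.8% of genes with a value) was chosen after seeing the data.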

Additional observations from a re-analysis of the deposited data

Results flagged for a closer look

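For 3 genes the response to dexamethasone differed between ovariectomized and intact females by a test of the difference itself (limma's interaction term, adjusted over all genes tested). For Ppp1r3g, the ovariectomized response minus the intact response was -3.12 ± 0.42 on the log2 scale (adjusted p = 0.000813), with responses of -3.61 in ovariectomized and -0.48 in intact females. For Gbe1 it was 0.69 ± 0.13 (adjusted p = 0.00373), with responses of 0.04 in ovariectomized and -0.65 in intact females. For Ppp1r3b it was 0.92 ± 0.31 (adjusted p = 0.0480), with responses of 1.73 in ovariectomized and 0.81 in intact females. The Ppp1r3g and Gbe1 differences passed in all 22 alternatives run (adjusted p from 1.04e-05 to 0.00326 and from 2.96e-05 to 0.0127), and that of Ppp1r3b in 6 of 22.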

How the results depend on the processing

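Of 725 values recomputed for the 9 genes, 657 kept their direction and their side of the threshold, 31 no longer passed, 20 newly passed and 17 changed sign; the causes were not tested. Library weights were uneven, from 0.33 for intact dexamethasone replicate 3 to 7.25 for intact dexamethasone replicate 1. With library weights the number of the 8 genes that passed was 6 for ovariectomized against intact under vehicle and 4 under dexamethasone, and that of all genes was 5919 under vehicle, 5777 under dexamethasone and 6659 for the difference between responses. Under dexamethasone it was 0 of 8 when only the groups compared were fitted (601 of all genes) and after quantile normalization (768 of all genes). Leaving out 1 library gave 2 to 5 of 8 genes (2215 to 3749 of all genes) under vehicle and 0 to 1 of 8 (207 to 1286 of all genes) under dexamethasone. No value that passed with all libraries changed sign. After quantile normalization the sign changed for the difference between responses of Gys2 (-0.039), Pygl (-0.0056) and Ugp2 (-0.015) and for Ugp2 between gonadal states under dexamethasone (-0.019), and with length and GC trends removed for Gyg under vehicle (-0.033). With 1 library left out, values that crossed 0 ranged, with dexamethasone in ovariectomized females, from -0.0054 to 0.082 for Gbe1 and -0.074 to 0.75 for Ppp1r3c. They ranged from -0.037 to 0.075 for Gyg under vehicle and from -0.76 to 0.14 for the Ppp1r3c difference between responses. Between gonadal states under dexamethasone they ranged from -0.11 to 0.80 for Ppp1r3c, -0.11 to 0.40 for Ppp1r3g and -0.055 to 0.047 for Pygl. Libraries of the same replicate number did not consistently deviate together. Of 18 correlations of their deviations, 6 were over 0.1 (range -0.23 to 0.40). In 6 of the 18 pairs of libraries, the correlation was above those with the other replicate numbers. With the replicate number as a block, 4 of 8 genes passed under vehicle, Gys2 being added, and the counts were 4 for dexamethasone in each gonadal state, 1 between gonadal states under dexamethasone and 3 for the difference between responses. The fit of only the groups compared gives no value for the difference between responses, which uses all groups. Depth is unknown, so differences of low genes such as Ppp1r3d could not be set against counting error.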
